A study of Mus musculus with 18 samples.

Results

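Immediate early genes are genes that cells switch on within minutes of a stimulus without needing new protein, and many of them encode subunits of the dimeric transcription factor AP-1. The 10 genes described here are the AP-1 subunits *Fos*, *Jun*, *Junb* and *Jund*, the related bZIP factor *Atf3*, the zinc finger factors *Egr1* and *Klf6*, the growth regulator *Myc*, and the early response genes *Ier3* and *Dusp1*. They were taken by symbol from the deposited liver table, and all 10 were found among its 15052 genes. Their values were followed over 4 groups of mice that differed in genotype and in ethanol exposure, the latter as chronic feeding followed by a binge.

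Livers came from 9 pair-fed mice, 4 of them WT and 5 *Apoe* KO, and from 9 EtOH-fed mice, 5 of them WT and 4 *Apoe* KO, each aged 10–12 weeks. WT mice were C57BL/6J, and *Apoe* KO mice carry the knockout in the whole body rather than in 1 cell type. After 5 days of acclimation all mice took liquid diet for 10 days, with 5% (v/v) ethanol for EtOH-fed mice and an isocaloric control diet for pair-fed mice. On day 11 the EtOH-fed mice were gavaged with 5 g/kg ethanol and the pair-fed mice with 9 g/kg dextrin-maltose, and livers were taken 9 h later. All groups therefore share the liquid diet and the gavage, and each EtOH-fed value stands for chronic feeding and binge together.

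The value per gene and mouse is a scaled read count, which the authors had brought to a nearly common total of 32267493 to 32292618 and rounded. Reads on genes, estimated from the spacing of low values in 16 of the 18 mice, ran from 5.60 to 52.2 M per mouse, with medians of 14.9 M (WT) and 23.9 M (*Apoe* KO) after pair feeding and of 39.5 M (WT, 3 resolved mice) and 11.0 M (*Apoe* KO) after ethanol. Summed hepatocyte markers lay between 2024988 and 3638367 in every mouse, and hepatocyte genes were high in every library. *Apoe* itself stood at 611230 to 798431 in the 9 WT mice and at 8586 to 108651 in the 9 *Apoe* KO mice. Some *Apoe* signal thus remained in every *Apoe* KO mouse, most in pair-fed mouse 4, and its source was not tested. All 18 mice are labelled female, while the study's methods allow both sexes. EtOH-fed *Apoe* KO mouse 1 stood apart, with *Xist* at 826 against 15227 to 30379 elsewhere and Y-linked *Ddx3y* at 1077 against 2 to 118. Calls of the 10 genes that rest on this mouse are therefore also given without it, with the values of some of them. List counts without it are given where they changed.

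AP-1 is built from JUN proteins, which pair with each other, with FOS proteins or with ATF proteins. MAP kinases such as JNK and ERK raise the transcription and activity of these subunits, and dual-specificity phosphatases such as DUSP1 switch the kinases off again. In liver the pathway is known for its response to hepatocyte stress, partial hepatectomy and acute toxins, and FOS and EGR1 messages are known to be short-lived while JUND is made at a steadier level.

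Of the 10 genes, 8 have an entry in the RefSeq promoter table (build GRCm38.p6), and *Egr1* and *Myc* have none. The 250 bases before each start were searched on both strands for the AP-1 site TGANTCA, the related site TGACNTCA, the CRE core TGACGT, the E-box CACGTG and the CArG box. Where its N is G, TGACNTCA contains TGACGT. The 6 promoters below belong to the 5 genes that were called in at least 1 comparison of these livers, and to *Fos* as the classic member that did not pass the test in any. Capitals mark matches.
Atf3 (chr1:191183334-191183583, − strand): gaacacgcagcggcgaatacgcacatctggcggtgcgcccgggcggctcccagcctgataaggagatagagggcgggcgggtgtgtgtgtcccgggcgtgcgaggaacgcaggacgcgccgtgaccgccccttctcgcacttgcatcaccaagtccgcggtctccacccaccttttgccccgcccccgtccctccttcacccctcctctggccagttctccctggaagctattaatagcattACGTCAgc
Jund (chr8:70697489-70697738, + strand): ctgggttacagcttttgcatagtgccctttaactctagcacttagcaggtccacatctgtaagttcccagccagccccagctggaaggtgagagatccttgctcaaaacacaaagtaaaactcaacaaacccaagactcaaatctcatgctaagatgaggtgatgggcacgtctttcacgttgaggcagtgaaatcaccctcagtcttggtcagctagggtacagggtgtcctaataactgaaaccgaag
Jun (chr4:95052223-95052472, − strand): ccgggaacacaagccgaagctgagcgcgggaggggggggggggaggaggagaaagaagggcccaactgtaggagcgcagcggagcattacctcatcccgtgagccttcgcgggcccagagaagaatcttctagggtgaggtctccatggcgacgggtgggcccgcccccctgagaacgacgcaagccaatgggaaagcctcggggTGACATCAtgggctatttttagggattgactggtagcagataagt
Klf6 (chr13:5861239-5861488, + strand): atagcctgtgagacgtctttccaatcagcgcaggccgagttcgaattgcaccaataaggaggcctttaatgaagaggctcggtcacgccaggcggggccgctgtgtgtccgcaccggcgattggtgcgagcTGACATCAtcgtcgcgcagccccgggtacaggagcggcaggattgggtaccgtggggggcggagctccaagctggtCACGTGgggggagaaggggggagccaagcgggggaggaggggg
Dusp1 (chr17:26508520-26508722, − strand): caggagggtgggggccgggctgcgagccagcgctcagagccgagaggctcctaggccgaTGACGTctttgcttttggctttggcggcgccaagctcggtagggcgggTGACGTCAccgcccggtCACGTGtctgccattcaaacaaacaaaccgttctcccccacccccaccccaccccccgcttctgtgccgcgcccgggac
Fos (chr12:85473640-85473889, + strand): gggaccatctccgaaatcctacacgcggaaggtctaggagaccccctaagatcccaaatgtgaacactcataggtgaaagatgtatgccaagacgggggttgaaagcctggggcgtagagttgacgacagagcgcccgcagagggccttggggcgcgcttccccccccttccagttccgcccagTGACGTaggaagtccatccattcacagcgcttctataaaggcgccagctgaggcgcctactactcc
The *Jun* and *Klf6* windows held the same 8 letters, TGACATCA, at −45 and −119 from the start. The *Dusp1* window held TGACGTCA at −143, a second TGACGT at −191 and an E-box at −126, and *Klf6* also held an E-box at −43. In *Fos* the CRE core lay at −66 and in *Atf3*, on the other strand, at −8. The TGACNTCA site was found in 3 of the 8 promoters and in 7.49% of all 32851 promoters, the CRE core in 3 and in 6.47%, and the E-box in 2 and in 6.02%. Neither TGANTCA (6.75% of all promoters) nor a CArG box (1.47%) matched in these 8 windows, and the windows of *Jund*, *Junb* and *Ier3* held no match at all. These matches describe letters and are no measure of binding. Bases more than 250 before a start were not searched, so sites there are not seen. The last 7 bases of the *Atf3* and *Klf6* windows fall in an exon of another transcript in GENCODE M21, and the last 47 bases before the *Dusp1* start, which do so too, are not shown. The *Atf3* and *Dusp1* windows lie inside their genes, with RefSeq starts 34706 and 53656 bases after the most distant annotated start, while the RefSeq start of *Jund* lies 1210 bases before the GENCODE start.

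Ethanol raised a small set of these genes in both genotypes. In WT mice, *Atf3* and *Jund* rose, and the other 8 genes did not pass the test. With *Apoe* lost, *Atf3*, *Klf6*, *Jund* and *Jun* rose, *Dusp1* fell, and the other 5 did not pass. Calls are limma tests on log2(value + 1) with Benjamini-Hochberg adjustment over all 15052 genes, at an adjusted p under 0.05. In WT mice 2 of 10 genes were called higher, against 6.19% of all genes called higher and 12.7% called in either direction. In 2 of 10 the EtOH-fed group lay wholly above the pair-fed group, against 7.43% of all genes, and 14.4% had groups without overlap in either direction. Among *Apoe* KO mice 4 of 10 genes were called higher, against 16.3%, and 1 lower, against 6.92%, with 23.2% of all genes called in either direction. There 4 of 10 genes had EtOH-fed values wholly above the pair-fed values, against 14% of all genes, and 20% had groups without overlap in either direction. An unadjusted p under 0.05 was reached by 4 of 10 genes in WT and by 7 of 10 in *Apoe* KO mice. Of all 15052 genes, 4236 and 5405 reached it. The median log2 fold change over the 10 genes was 0.51 in WT and 0.84 in *Apoe* KO mice, beside −0.011 and 0.13 over all genes.

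**Figure D1:**
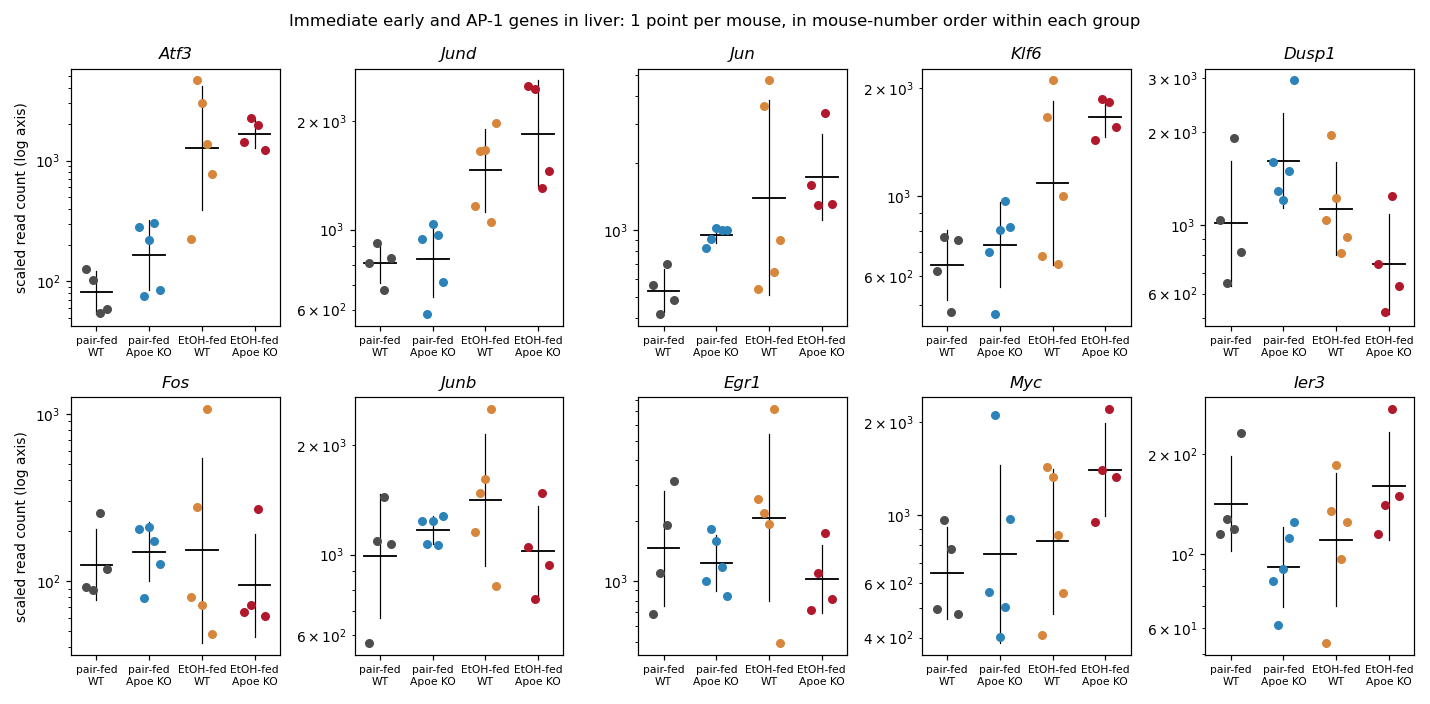
Scaled read count of each of the 10 genes (log axis, own range per panel) in each mouse of the 4 groups, in mouse-number order. Points are mice, bars are means and vertical lines 1 SD, both taken on the log2(value + 1) scale. *Atf3* reached 224 to 4627 in EtOH-fed WT mice against 55 to 127 in pair-fed WT mice, while the *Fos* groups overlap throughout.

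*Atf3*, a stress-induced repressor and activator that pairs with JUN proteins (chr1:191170296-191218039, − strand, GRCm38), showed the widest change. It stood at 127, 103, 55 and 59 in the pair-fed WT mice and at 224, 4627, 3006, 1375 and 773 in the EtOH-fed WT mice. The *Apoe* KO mice had 284, 76, 218, 306 and 85 after pair feeding and 1433, 2265, 1981 and 1223 after ethanol. All EtOH-fed mice lay above all pair-fed mice of their genotype. EtOH-fed WT mouse 1, at 224, was the exception to the high level and lay within the pair-fed *Apoe* KO range. The log2 fold change was 3.96 in WT mice (SE 0.67, limma adjusted p = 0.00226), or 15.6-fold. In *Apoe* KO mice it was 3.33 (SE 0.39, limma adjusted p = 8.90e-05), or 10.1-fold, and 3.41 without EtOH-fed *Apoe* KO mouse 1. In whole liver, a change in the number of cells of a type and a change in RNA per cell cannot be told apart. The spread among EtOH-fed mice differed by group, with 2001 ± 1800 (SD, n = 5) in WT and 1726 ± 481 (SD, n = 4) in *Apoe* KO mice. Among the pair-fed groups it was 86.0 ± 34.9 (SD, n = 4) in WT and 194 ± 108 (SD, n = 5) in *Apoe* KO mice, and the groups overlapped.

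*Jund*, the AP-1 subunit that is present in resting cells (chr8:70698949-70700616, + strand), rose in both genotypes by a smaller and more even step. The pair-fed WT mice had 807, 916, 682 and 835 and the EtOH-fed WT mice 1163, 1647, 1662, 1051 and 1978. The pair-fed *Apoe* KO mice had 944, 583, 1033, 964 and 714, and the EtOH-fed *Apoe* KO mice 2496, 2444, 1306 and 1450. No EtOH-fed mouse fell into the range of the pair-fed mice of either genotype. The fold change was 1.81 in WT mice (log2 0.86, SE 0.18, limma adjusted p = 0.00708). It was 2.22 in *Apoe* KO mice (log2 1.15, SE 0.22, limma adjusted p = 0.00215), and log2 1.01 without EtOH-fed *Apoe* KO mouse 1. *Atf3* and *Jund* stayed called in 9 of 9 fits that left out 1 mouse, in each genotype.

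*Jun*, the subunit that JNK phosphorylates (chr4:95049034-95052222, − strand), split the EtOH-fed WT mice. Mice 2 and 3 stood at 3595 and 4717, and mice 1, 4 and 5 at 539, 643 and 900, beside 565, 417, 699 and 482 in pair-fed WT mice. The 3 lower EtOH-fed mice thus lay in or just above the pair-fed range. The log2 fold change of 1.39 (SE 0.55) did not pass the test (limma adjusted p = 0.114). In *Apoe* KO mice the pair-fed values were 830, 905, 1022, 993 and 994 and the EtOH-fed values 1586, 1289, 3349 and 1307, without overlap. That rise was 1.83-fold (log2 0.87, SE 0.22, limma adjusted p = 0.0135) and log2 0.91 without mouse 1. EtOH-fed *Apoe* KO mouse 4 carried much of it, since the log2 fold change without that mouse was 0.55, still called. With all 4 groups in the fit, where the wide EtOH-fed WT group enters the error, the adjusted p became 0.194.

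*Junb* (chr8:84974484-84978718, − strand) and *Fos* (chr12:85473890-85477273, + strand), a JUN family member and the founding partner of JUN, did not pass the test in either genotype. *Fos* stood at 92, 88, 254 and 118 in pair-fed WT and at 80, 275, 72, 1066 and 48 in EtOH-fed WT mice. It stood at 205, 79, 209, 174 and 127 in pair-fed and at 65, 72, 270 and 62 in EtOH-fed *Apoe* KO mice. EtOH-fed WT mouse 4 was far above the other 17 mice, and 3 of the 4 EtOH-fed *Apoe* KO mice lay below all 5 pair-fed ones. The log2 fold change with ethanol was 0.29 (SE 0.72) in WT mice and −0.41 without that mouse. In *Apoe* KO mice it was −0.66 (SE 0.42, limma adjusted p = 0.278). Without EtOH-fed *Apoe* KO mouse 4, the high one at 270, it was −1.16 and passed the test (limma adjusted p = 0.0199). *Fos* is also a shallow measurement, since its values correspond to an estimated 16.0 to 813 reads in the resolved mice. *Junb* ranged from 570 to 1443 (WT) and from 1062 to 1277 (*Apoe* KO) after pair feeding, and from 817 to 2518 (WT) and 752 to 1482 (*Apoe* KO) after ethanol, so that all groups overlapped. Its log2 fold changes with ethanol were 0.51 (SE 0.30) and −0.20 (SE 0.16). Without EtOH-fed *Apoe* KO mouse 1 the *Apoe* KO values were −0.49 for *Fos* and −0.21 for *Junb*, and neither passed.

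*Klf6*, a zinc finger factor induced in injured liver (chr13:5861482-5870394, + strand), rose evenly in *Apoe* KO mice. The pair-fed values there were 701, 471, 808, 969 and 824 and the EtOH-fed values 1438, 1871, 1826 and 1557, with no overlap. The rise was 2.26-fold (log2 1.18, SE 0.18, limma adjusted p = 0.000472) and log2 1.25 without mouse 1. In WT mice the EtOH-fed values of 681, 1658, 2103, 649 and 1004 overlapped the pair-fed values of 622, 770, 477 and 758. There, mice 2 and 3, the same mice in which *Jun* was high, again had the highest values. The log2 fold change in WT mice was 0.76 (SE 0.31, limma adjusted p = 0.126).

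*Egr1* (chr18:34859823-34864984, + strand), which ERK signalling induces, spread widely within groups. Pair-fed WT mice had 691, 1099, 1898 and 3159 and EtOH-fed WT mice 2554, 2193, 1929, 7168 and 493, so that the EtOH-fed group held both the highest and the lowest mouse of the 18. Pair-fed *Apoe* KO mice had 997, 1828, 1590, 1175 and 840 and EtOH-fed *Apoe* KO mice 722, 1093, 1728 and 815. The log2 fold change with ethanol was 0.50 (SE 0.59) in WT and −0.26 (SE 0.26) in *Apoe* KO mice (−0.096 without mouse 1), and none of these passed.

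*Myc* (chr15:61985391-61990374, + strand), a driver of ribosome production and growth, was at 496, 962, 775 and 479 in pair-fed WT and at 408, 1428, 1331, 858 and 558 in EtOH-fed WT mice. It was at 561, 2108, 403, 503 and 971 in pair-fed and at 948, 1399, 2203 and 1327 in EtOH-fed *Apoe* KO mice. Pair-fed *Apoe* KO mouse 2, at 2108, stood near the highest EtOH-fed mouse, at 2203, and all groups overlapped. With ethanol the log2 fold change was 0.34 (SE 0.34) in WT and 0.91 (SE 0.39, limma adjusted p = 0.111) in *Apoe* KO mice. Without pair-fed *Apoe* KO mouse 2 it was 1.28 and passed the test (limma adjusted p = 0.00480), and without EtOH-fed *Apoe* KO mouse 1 it was 1.10 and did not (limma adjusted p = 0.0838).

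*Dusp1*, the phosphatase that inactivates JNK, p38 and ERK (chr17:26505590-26562128, − strand), fell with ethanol in *Apoe* KO mice. The pair-fed mice had 1604, 1288, 1212, 1500 and 2954, and the EtOH-fed mice 751, 525, 1249 and 634. The highest EtOH-fed mouse, number 4, lay just above the lowest pair-fed mouse, and the others lay below all 5. The log2 fold change was −1.11 (SE 0.26, limma adjusted p = 0.00868), and −1.12 without mouse 1. In WT mice the values were 1037, 651, 1919 and 819 after pair feeding and 1038, 1969, 1226, 813 and 916 after ethanol, with a log2 fold change of 0.16 (SE 0.29, limma adjusted p = 0.771). *Ier3*, a small survival factor (chr17:35821684-35822923, + strand), ran from 115 to 232 (WT) and from 61 to 125 (*Apoe* KO) after pair feeding, and from 54 to 186 (WT) and 115 to 274 (*Apoe* KO) after ethanol. With ethanol it differed on the log2 scale by −0.36 (SE 0.33) in WT and by 0.81 (SE 0.28, limma adjusted p = 0.0541) in *Apoe* KO mice. Without EtOH-fed *Apoe* KO mouse 1 the latter was 0.97 and passed (limma adjusted p = 0.0365), as it did without pair-fed *Apoe* KO mouse 5 (limma adjusted p = 0.0460).

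**Figure D2:**
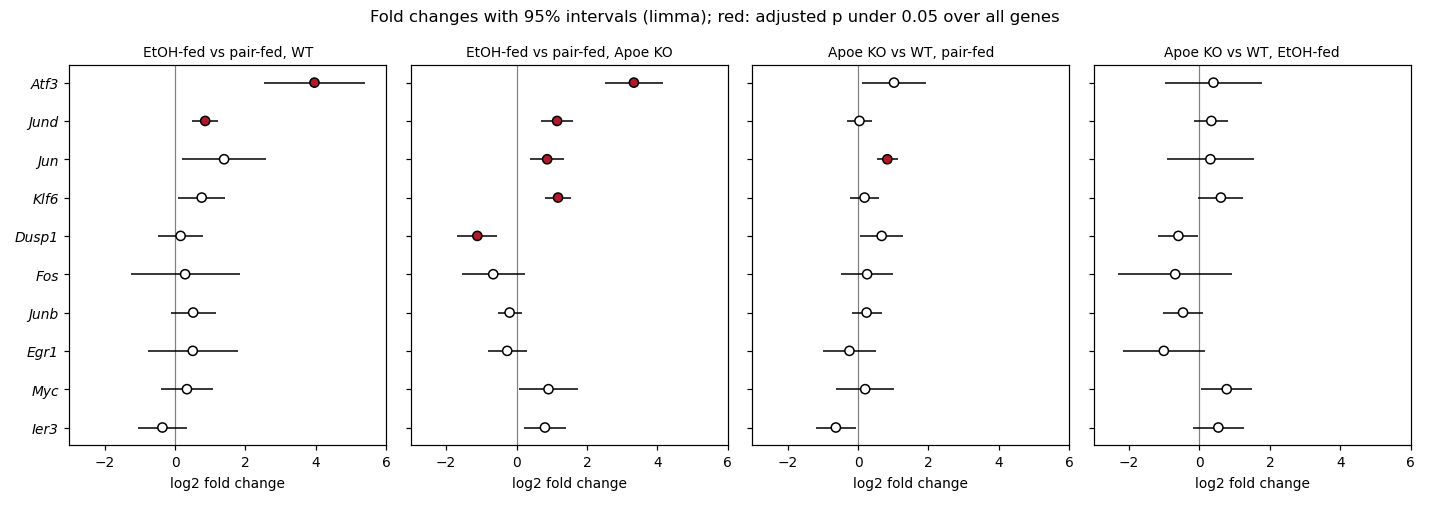
log2 fold change of each gene (x axis) with its 95% interval from limma, in the 4 comparisons of groups. Red points passed an adjusted p of 0.05 over all genes. *Atf3* and *Jund* are red in both ethanol comparisons, *Jun* is red in the pair-fed comparison of genotypes, and no gene is red in the EtOH-fed comparison of genotypes.

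The scaling moved these folds a little. In EtOH-fed *Apoe* KO against pair-fed *Apoe* KO mice the median of all genes was 0.13 on the log2 scale, and 0.0018 after median-of-ratios size factors. With those factors 1656 genes were called higher and 1607 lower, in place of 2446 and 1042. Relative to the median of all genes, *Atf3* changed by 3.21, *Klf6* by 1.05, *Jund* by 1.03, *Jun* by 0.74 and *Dusp1* by −1.24, and all 5 stayed called under the size factors.

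Loss of *Apoe* in pair-fed mice changed 1 of the 10 genes. *Jun* was higher in all 5 *Apoe* KO mice (830 to 1022) than in all 4 WT mice (417 to 699). It averaged 949 ± 79.7 (SD, n = 5) against 541 ± 122 (SD, n = 4), which is 1.78-fold (log2 0.83, SE 0.14, limma adjusted p = 0.00998). In this comparison 1.73% of all genes were called (0.87% higher) and 7.03% had groups without overlap (4.01% higher), beside 1 of 10 genes for both. *Jun* stayed called in 9 of 9 fits that left out a mouse, and was not called with all 4 groups in the fit (limma adjusted p = 0.346). *Atf3*, at log2 1.02 (SE 0.42, limma adjusted p = 0.199), and *Dusp1*, at 0.67 (SE 0.29, limma adjusted p = 0.213), did not pass, and *Dusp1* did so without pair-fed WT mouse 3 (limma adjusted p = 0.0458). *Ier3*, at −0.63 (SE 0.27, limma adjusted p = 0.209), also did not pass. The remaining genes had log2 differences between −0.24 and 0.26. An unadjusted p under 0.05 was reached by 4 of 10 genes and by 2991 of all 15052 genes.

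In EtOH-fed mice none of the 10 genes differed between genotypes by limma's test. The lowest adjusted p was 0.231, and 0 of 10 genes had groups without overlap. An unadjusted p under 0.05 was reached by 2 of 10 genes (*Myc* and *Dusp1*) and by 2845 of all 15052 genes. Over all genes 4.69% were called and 8.13% had groups without overlap. *Atf3* differed by log2 0.40 (95% interval −0.99 to 1.78), *Jun* by 0.31 (−0.93 to 1.55) and *Jund* by 0.34 (−0.15 to 0.82), so that the intervals of the first 2 reach past 1 log2 unit. For both the plain means lay the other way, at 1726 in *Apoe* KO against 2001 in WT mice for *Atf3* and at 1883 against 2079 for *Jun*, so that the sign turns with the scale. *Egr1*, at −1.01 (SE 0.54, limma adjusted p = 0.344), had the largest size. It passed without EtOH-fed WT mouse 5, the lowest of all mice (log2 −1.53, limma adjusted p = 0.0363), and stood at −0.56 without EtOH-fed WT mouse 4, the highest. *Fos* stood at −0.69 with, and at 0.010 without, that same mouse 4. *Myc* was 0.77 higher (SE 0.34, limma adjusted p = 0.231), *Klf6* 0.61 higher (SE 0.30) and *Dusp1* −0.60 (SE 0.27), each on the log2 scale. The median of all genes was 0.11 here and −0.020 with size factors, with 639 genes called higher and 67 lower, or 380 and 126 with size factors. Without EtOH-fed *Apoe* KO mouse 1 again no member was called, with *Myc* at 0.96 and *Jund* at 0.19.

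The response to ethanol was compared between genotypes in 1 fit of all 18 mice. None of the 10 genes passed by limma's test of the interaction, and 2.84% of all genes were called. An unadjusted p under 0.05 was reached by 2 of the 10 genes and by 2451 of all 15052 genes. *Dusp1* came closest, with a response log2 1.27 lower in *Apoe* KO than in WT mice (log2 −1.27, SE 0.44, limma adjusted p = 0.128), and *Ier3* followed at 1.17 (SE 0.46, limma adjusted p = 0.188). Without pair-fed WT mouse 3 the *Dusp1* value was −1.58 (limma adjusted p = 0.0351). These were −1.27 and 1.33 without EtOH-fed *Apoe* KO mouse 1, and again none of the 10 genes passed. For *Atf3* the interaction was −0.63 (SE 0.87) and for *Klf6* 0.42 (SE 0.39). That *Klf6*, *Jun* and *Dusp1* passed in *Apoe* KO mice and not in WT mice is therefore not a shown difference between the genotypes.

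Per kb of exon, the order of the genes in pair-fed WT liver began with *Jund* at 486 units per kb (409 to 549 over mice), *Junb* at 453 and *Egr1* at 382. It ended with *Fos* at 58.7 and *Atf3* at 39.9 (25.5 to 59.0). The ranges of *Jund*, *Junb* and *Egr1* over mice overlapped, so their order is not fixed. In EtOH-fed WT mice *Atf3* came first, at 929 units per kb, with a range of 104 to 2148 that took in the means of the other 9 genes. In EtOH-fed *Apoe* KO mice *Jund* was first at 1153 (783 to 1496), followed by *Atf3* at 801 and *Jun* at 590, while *Fos* was last at 49.9.

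**Figure D3:**
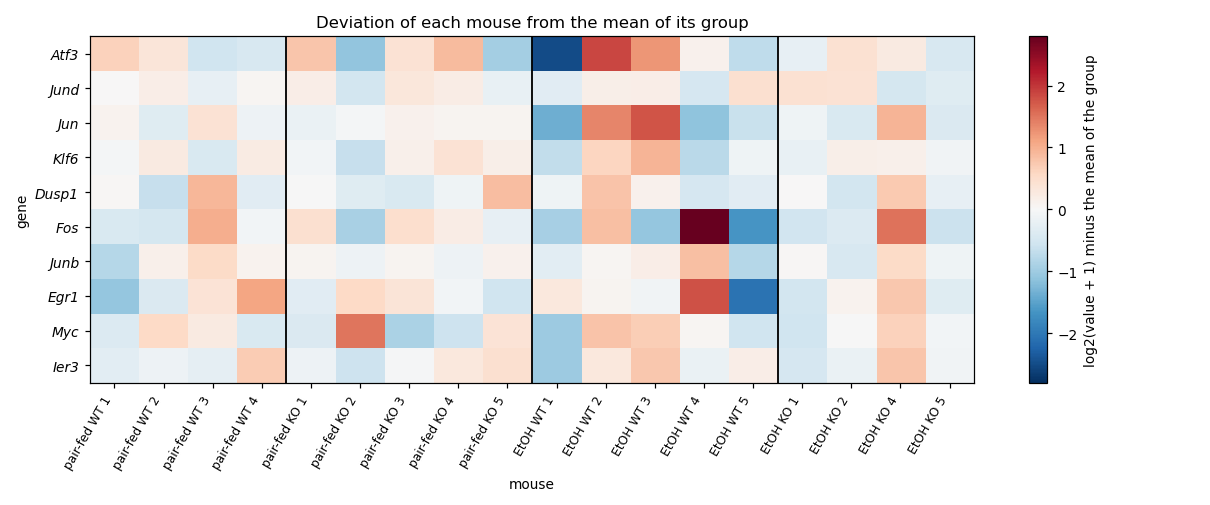
Deviation of log2(value + 1) from the mean of its group (colour, log2 units) for each gene and each of the 18 mice, grouped by vertical lines. EtOH-fed WT mice 2 and 3 are high in *Atf3*, *Jun* and *Klf6*, mouse 4 is high in *Fos* and *Egr1*, and mouse 1 is low in *Atf3*, *Jun* and *Myc*.

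Some of the genes were high or low in the same mice of a group. Averaged over the 10 genes, EtOH-fed WT mice deviated from their group mean by −0.79, 0.69, 0.47, 0.26 and −0.62 log2 units (mice 1 to 5), against −0.28 to 0.58 in EtOH-fed *Apoe* KO and −0.23 to 0.20 in all pair-fed mice. Over the 45 pairs of genes the median Pearson r of deviations was 0.21 (n = 18 mice). By a two-sided permutation test within groups (100000 resamples, Benjamini-Hochberg over 45 pairs), 3 pairs passed for r and 0 passed for Spearman's rho. *Fos* and *Junb* had r = 0.760 (permutation adjusted p = 0.0441) and rho = 0.552 (permutation adjusted p = 0.340). *Klf6* and *Ier3* had r = 0.745 (permutation adjusted p = 0.0436) and rho = 0.680 (permutation adjusted p = 0.0994). *Jun* and *Dusp1* had r = 0.590 (permutation adjusted p = 0.0441) and rho = 0.664 (permutation adjusted p = 0.0994). Leaving out the 2 mice farthest from the median of the first gene gave r of 0.580, 0.739 and 0.598. No pair passed with size factors or without EtOH-fed *Apoe* KO mouse 1. Of 12466 other genes with a mean value of at least 50, those most like the mean deviation of the 10 genes were *Gadd45a* (r = 0.884), *Gdf15* (0.862), *Zfyve26* (0.859), *Klf11* (0.849) and *Dusp6* (0.849), all over the same 18 mice and libraries. The EtOH-fed WT mice, whose mean deviations were the widest, weigh most in this ranking.

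Other bZIP genes around AP-1 were measured for 15 of 16 listed. With ethanol, 2 were called higher and 1 lower in WT mice, and 5 higher and 3 lower in *Apoe* KO mice. Beside these and the list counts that follow stand 6.19% of all genes called higher and 6.52% lower in WT mice, and 16.3% higher and 6.92% lower in *Apoe* KO mice. The *Apoe* KO counts were 4 and 3 without EtOH-fed *Apoe* KO mouse 1, with *Batf2* no longer called. *Atf5*, a factor of the amino acid stress response, rose by log2 1.88 (SE 0.12) and 1.64 (SE 0.15), and the small MAF protein gene *Mafk* by 0.68 (SE 0.14) and 0.98 (SE 0.13). *Batf3* fell by 1.15 in WT mice. For *Apoe* KO mice, *Atf4* rose by 0.75, *Batf2* by 1.30 and *Maf* by 0.43, and *Maff* and *Mafg* fell by 0.74 and 0.45. Their median log2 fold change was −0.09 in WT and 0.36 in *Apoe* KO mice. Between genotypes in EtOH-fed mice, *Mafk* was 0.77 higher in *Apoe* KO mice (SE 0.15, limma adjusted p = 0.0105, and 0.69 without mouse 1, limma adjusted p = 0.0317), and none of the 15 passed in pair-fed mice or for the interaction.

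Of 31 other immediate early and early response genes in the table (33 listed), 4 were called higher and 0 lower in WT mice, and 6 higher and 10 lower in *Apoe* KO mice. In *Apoe* KO mice all genes had 16.3% called higher and 6.92% lower, so that 6 of 31 is near the share of all genes and 10 of 31 above it. These became 5 and 9 without EtOH-fed *Apoe* KO mouse 1, with *Klf2* no longer called. *Sgk1*, a kinase induced by glucocorticoids and cell stress, rose by log2 1.91 (SE 0.35) and 1.74 (SE 0.20). In WT mice the orphan nuclear receptor gene *Nr4a1* rose by 1.14, *Gadd45b* by 0.79 and *Rhob* by 0.39. The *Apoe* KO mice had rises of *Gadd45a* (1.39), the matricellular gene *Ccn2* (1.37), *Ier5* (0.99) and *Klf2* (0.84). Genes that fell there included *Gadd45g* (−1.63), the cytokine signalling inhibitor *Socs3* (−1.32), *Zfp36* (−1.14), whose protein destabilises cytokine messages, *Csrnp1* (−0.89) and the clock gene *Per1* (−0.84). *Gadd45g* was also the only one of the 31 called in pair-fed mice, 1.52 higher in *Apoe* KO mice (SE 0.21, limma adjusted p = 0.0022), and the only one called for the interaction (−2.003, SE 0.47, limma adjusted p = 0.0232, and −1.86 without EtOH-fed *Apoe* KO mouse 1).

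The kinases upstream are set beside 12.7% of all genes called in either direction in WT and 23.2% in *Apoe* KO mice. Of 18 MAP kinase cascade genes, 1 fell in WT mice (*Map2k3*, −0.50, a kinase for p38) and 2 fell in *Apoe* KO mice (*Map2k6*, −1.36, and *Map2k3*, −0.50), and none was called in the other comparisons. Among 9 factors bound at immediate early promoters, *Elk3* (1.30) and *Crtc3* (0.67) rose in *Apoe* KO mice and none was called elsewhere. The feedback inhibitors, 15 genes beside *Dusp1*, had 3 called higher in WT mice and 7 higher and 1 lower in *Apoe* KO mice. *Dusp8*, a JNK and p38 phosphatase, rose by 3.19 (SE 0.48) and 2.63 (SE 0.35), or 9.10-fold and 6.19-fold. Its mean went from 31 to 347 in WT and from 74 to 413 in *Apoe* KO mice. *Dusp3* rose by 1.07 and 1.12, *Dusp16* by 0.67 in WT, and *Dusp4* (2.08), *Dusp5* (1.41) and *Dusp10* (0.85) in *Apoe* KO mice. *Spry4*, an inhibitor of receptor tyrosine kinase signalling, fell by 1.57 in *Apoe* KO mice, and its interaction was −1.33 (SE 0.35, limma adjusted p = 0.0399), or −1.31 and not called without EtOH-fed *Apoe* KO mouse 1 (limma adjusted p = 0.0582). Without that mouse *Dusp5* and *Crtc3* were called higher in EtOH-fed *Apoe* KO than WT mice, and the interaction of *Elk3* was called.

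Genes known as AP-1 targets were the only pathway list with more than 1 call between genotypes in EtOH-fed mice, where 6 of 15 were higher in *Apoe* KO mice and 0 lower, against 4.25% of all genes called higher. The lists were chosen with earlier results of these data known, so the counts of this list are no independent test of AP-1 targets. They included *Timp1* (log2 2.30, SE 0.52), *Mmp12* (2.24, SE 0.30), *Hmox1* (1.49, SE 0.32) and *Cd44* (1.12, SE 0.19), genes of matrix turnover, heme breakdown and cell adhesion. With ethanol, 1 rose and 4 fell in WT mice, and 8 rose in *Apoe* KO mice. *Hmox1* rose in both genotypes, by 2.44 (SE 0.29) and 2.91 (SE 0.34). *Timp1* (−1.78), *Spp1* (−0.82) and *Cd44* (−0.69) fell in WT mice, whereas *Timp1* (2.10), *Mmp12* (1.96), *Plau* (1.35) and *Plaur* (1.08) rose in *Apoe* KO mice. Without EtOH-fed *Apoe* KO mouse 1, 5 were called higher in EtOH-fed *Apoe* KO than WT mice and 6 rose with ethanol in *Apoe* KO mice. The interaction was called for 6 of the 15, with and without that mouse, among them *Timp1* at 3.88 (SE 0.72), *Mmp12* at 2.35 (SE 0.40), *Plau* at 1.84 (SE 0.39) and *Cd44* at 1.58 (SE 0.36). In the same comparison of EtOH-fed mice, 7 of 7 Kupffer cell markers and 4 of 7 monocyte-derived macrophage markers were higher in *Apoe* KO mice, or 6 and 5 without mouse 1. The summed Kupffer cell markers lay at 5314 to 9859 in EtOH-fed WT and 12632 to 24103 in EtOH-fed *Apoe* KO mice, and the summed monocyte-derived markers at 1734 to 2916 and 4825 to 7807. Of 8 stellate cell markers 2 were higher, with sums of 10615 to 17490 and 18414 to 33319. Of 8 listed neutrophil markers 3 were measured and 0 called, with sums of 145 to 214 and 154 to 377. In each of the 4 groups, no marker of these 4 lists that was in the table was at 0 in every mouse. Only genes with a mean signal of at least 11.8 were deposited, so weaker markers are not seen. The part of cell makeup in these differences was not tested.

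The MYC network was represented by 9 of 10 listed partners and 9 targets. *Mycl* rose with ethanol by log2 1.36 (SE 0.22) in WT and 0.98 (SE 0.15) in *Apoe* KO mice, and *Mxd1*, a MYC antagonist, fell by 0.92 and 0.90. Among partners called in *Apoe* KO mice, *Mlxip* (0.67) and *Max* (0.36) rose and *Mycn* fell by 2.56, from a mean of 86.8 to 13.5. Of the targets 2 rose in WT mice, the nucleolar gene *Nop58* (0.97) and *Odc1* (0.79), the first enzyme of polyamine synthesis. The *Apoe* KO mice had 6 that rose, among them *Nop58* (1.14), *Nop56* (0.77), *Cad* (0.76), *Odc1* (0.47) and *Cdk4* (0.34), and *Ldha* fell by 0.27, which was not called without EtOH-fed *Apoe* KO mouse 1. None of the 18 was called between genotypes in either diet or for the interaction.

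**Figure D4:**
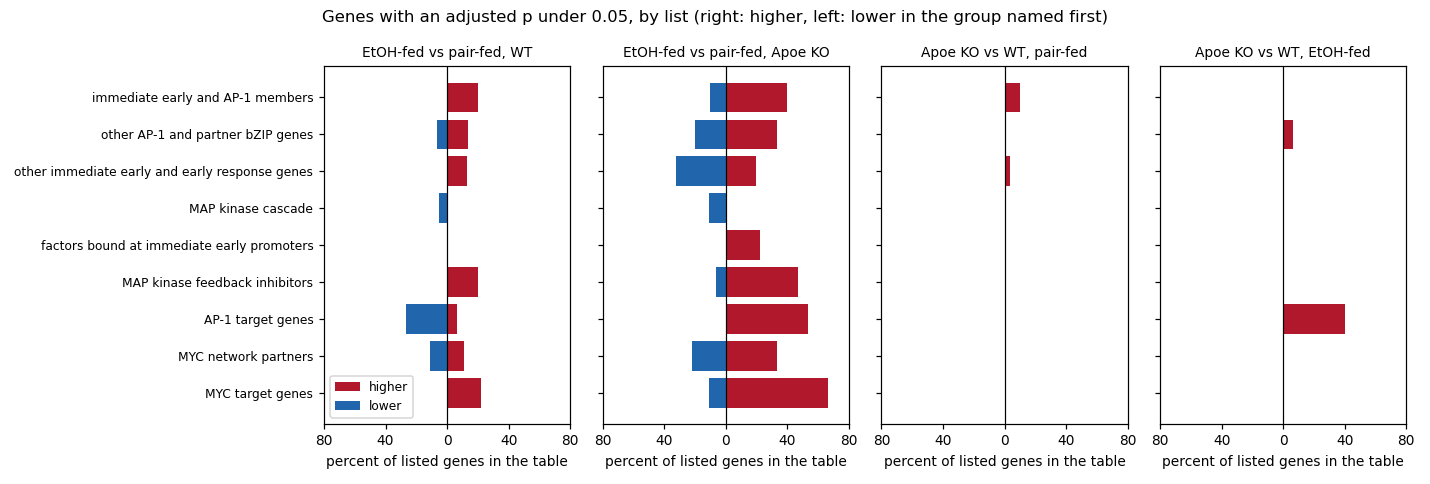
Percent of the genes of each list in the table that passed an adjusted p of 0.05 (x axis; red to the right higher, blue to the left lower in the group named first), in the 4 comparisons of groups. In EtOH-fed mice AP-1 target genes have 6 of 15 called higher in *Apoe* KO mice, while the 10 immediate early and AP-1 genes have 0. The lists were chosen with earlier results of these data known.

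Other cell type markers moved with ethanol as well. In each genotype 4 of 5 endothelial markers were higher in EtOH-fed mice, with sums of 4232 to 4791 in pair-fed and 5679 to 7642 in EtOH-fed WT mice, and of 3253 to 4427 and 5464 to 9125 in *Apoe* KO mice. Of 7 Kupffer cell markers 3 were lower in EtOH-fed WT and 3 higher in EtOH-fed *Apoe* KO mice. In EtOH-fed *Apoe* KO mice 6 of 8 stellate cell markers and 2 of 7 monocyte-derived macrophage markers were higher as well. Of 6 hepatocyte markers 2 were higher in EtOH-fed WT mice (*Tat*, 1.43, and *Cps1*, 1.12) and 1 in EtOH-fed *Apoe* KO mice (*Cps1*, 0.82). The cholangiocyte marker *Krt19* fell by 1.86 in WT and rose by 1.32 in *Apoe* KO mice. Over all genes 6.19% were called higher and 6.52% lower in WT mice, and 16.3% and 6.92% in *Apoe* KO mice. Whether these shifts have a part in the changes of *Atf3*, *Jund*, *Jun*, *Klf6* and *Dusp1* was not tested.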

How the data were processed

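Liver polyA RNA of 18 mice was sequenced. Per the study's methods and the submitters' processing notes, the authors used FastQC, Trimmomatic, HISAT2, SAMtools, featureCounts and DESeq2 on GRCm38, with versions not given in the sources used here. The authors deposited 1 table whose values per mouse are a signal, read counts per gene that were rounded after scaling each mouse to almost the same total, and the scaling step is not described. Its mean signal per gene is at least 11.8. The authors' own log2 fold changes with standard errors, p-values, and rank and test scores, deposited in the same table, were not used. The table has 15247 lines, of which 195 repeat 1 of 56 genes unchanged, and repeats were dropped. Of 15052 genes, 15040 were placed in GENCODE M21.

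Because the values are not counts, limma 3.58.1 in R 4.3.3 with an intensity trend was applied to log2(value + 1), so that folds of low genes are understated. Genes were called at an adjusted p under 0.05 over all 15052 genes. Each fit held the mice of its own 2 groups, and the interaction held all 18. Mice carry separate labels within a group, and each was counted as 1 replicate. Reads per mouse were estimated from the spacing of low values (window 31, log-likelihood lead over 10), which resolved 16 of 18 mice, so whole reads could not be recovered for a count test. The scripts were tested on simulated data. The 10 genes, the lists and the tests were chosen with earlier results of these data known. From the lists, up to 5 called genes in each direction were named, largest change first, and some of them are not reported here. Other settings tried were array weights, a pseudocount of 0.1, median-of-ratios size factors, genes at 10 or more throughout, the mouse number as a block, all 4 groups in 1 fit, and leaving out each mouse. Python 3.11.15, numpy 2.4.6, pandas 2.3.3, scipy 1.17.1 and matplotlib 3.10.9 were used.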

Additional observations from a re-analysis of the deposited data

Results flagged for a closer look

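A single mouse stood apart from the other mice of its group in 2 of 40 groups of values, where chance gives about 1 in 20. For *Fos* this was EtOH-fed *Apoe* KO mouse 4, at 270 beside 62 to 72, with a gap of 0.899 of the range of the group. For *Ier3* it was pair-fed WT mouse 4, at 232 beside 115 to 128, with a gap of 0.848 of the range.

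The response to ethanol differed between genotypes by the limma interaction test for 6 named genes of the lists. On the log2 scale the difference was −2.003 for *Gadd45g* and −1.33 for *Spry4*, whose response was lower in *Apoe* KO mice. Without EtOH-fed *Apoe* KO mouse 1, *Spry4* was not called (limma adjusted p = 0.0582), and the others stayed called. The difference was 3.88 for *Timp1*, 2.35 for *Mmp12*, 1.84 for *Plau* and 1.58 for *Cd44*, whose response was higher in *Apoe* KO mice. Macrophage and stellate cell markers moved in the same contrast, and their part was not tested.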

How the results depend on the processing

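Over 830 alternatives for the 10 genes, 802 kept direction and side of the threshold, 11 passed newly, 2 no longer passed and 15 changed sign. For the named genes of the lists, 1043 of 1157 kept both and 114 no longer passed. The 2 lost calls of members were those of *Jun* with all 4 groups in the fit, which left 0 of the 10 genes called between pair-fed genotypes in place of 1. Mouse numbers were not taken as pairs, since no comparison had every same-numbered pair correlated above 0.1. Between EtOH-fed groups the correlations of deviations were −0.0242 to 0.230 (mean 0.135) and 6 of 8 mice correlated best with their own number, a hint from the data and not from the design. Elsewhere the means were 0.0152, 0.0358 and −0.0481, with 2, 3 and 2 of 8. With the replicate block, on 8 mice, 2 of the 10 genes (*Myc*, 0.95, and *Klf6*, 0.84) were called in EtOH-fed *Apoe* KO against WT mice in place of 0, and 1083 of all genes in place of 706, or of 578 for the same 8 mice with no block. The block gave 4 (adding *Egr1* and *Junb*) in place of 2 for ethanol in WT mice, where the same 8 mice with no block also gave 2. Between pair-fed genotypes it gave 392 of all genes in place of 261, but the same 8 mice with no block gave 452. It changed no other call of the 10 genes. Array weights gave 456 of all genes between pair-fed genotypes. The 3 covarying pairs became 0 with size factors and 0 without EtOH_ApoE replicate 1. The causes were not tested.

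Leaving out 1 mouse gave 0 to 1 of the 10 genes called in EtOH-fed *Apoe* KO against WT (327 to 620 of all genes), 1 to 2 between pair-fed genotypes (73 to 670), 2 to 2 for ethanol in WT (1186 to 1904), 5 to 6 for ethanol in *Apoe* KO (2637 to 3320), and 0 to 1 for the interaction (167 to 561). Counts over all genes moved by over 1.5 times without EtOH-fed WT mouse 1 (327) or EtOH-fed *Apoe* KO mouse 4 (353) or 5 (408) in the first, and between pair-fed genotypes without WT mouse 2 (73), 3 (670) or 4 (91) or *Apoe* KO mouse 1 (119), 3 (166), 4 (127) or 5 (452). For ethanol in WT they moved without pair-fed WT mouse 2 (1186) or 4 (1231). For the interaction they moved without pair-fed WT mouse 2 (241) or 4 (167), pair-fed *Apoe* KO mouse 3 (266), EtOH-fed WT mouse 1 (228), or EtOH-fed *Apoe* KO mouse 4 (241) or 5 (252).

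Sign changes touched values that had not passed. Leaving out 1 mouse gave log2 ranges in EtOH-fed *Apoe* KO against WT of −0.23 to 0.86 for *Atf3*, −1.19 to 0.010 for *Fos* and −0.034 to 0.75 for *Jun*. Between pair-fed genotypes the ranges were −0.60 to 0.13 for *Egr1*, −0.021 to 0.43 for *Junb*, −0.039 to 0.17 for *Jund* and −0.17 to 0.43 for *Myc*, and *Myc* was −0.056 with array weights. For ethanol in WT they were −0.055 to 0.46 for *Dusp1* and −0.41 to 0.70 for *Fos*.

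Depth limits *Fos*, *Ier3* and pair-fed *Atf3* most, with estimates of 16.0, 20.0 and 22.0 reads in pair-fed WT mouse 1.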
